A study of Mus musculus with 17 samples.

Results

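The lysosome and autophagy genes are 38 genes chosen by name for their role, and all 38 were found and tested in both count tables of the study. They are 17 genes of lysosomal enzymes, 3 of activators and sterol transfer proteins, 5 of lysosomal membrane proteins, the transcription factor genes *Tfeb* and *Tfe3*, 5 genes of the ATG8 proteins that mark autophagosomes, and 6 genes that start an autophagosome or attach ATG8 to it. The tables list 78239 and 73212 gene identifiers, of which 19137 and 20167 passed the filter on low counts. A further 154 lysosome and autophagy genes in 8 lists were followed for context.

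The study measured RNA of isolated mouse pancreatic islets by bulk RNA-seq, to learn how a *Pax4* variant and the loss of *Pax4* act on islets under a high-fat diet (HFD). *Pax4* R192H mice, labelled Pax4 HH, are C57BL6/N mice homozygous for the R200H substitution in mouse *Pax4*, which matches human R192H, and their wildtype littermates are labelled Pax4 WT. Both genotypes were sampled at 12 weeks on a standard chow diet (SCD) and at 16 weeks after 4 weeks of HFD, with 3 mice in each of the 4 groups. *Pax4* βiKO mice, labelled Pax4-BiKO, carry 2 floxed *Pax4* alleles and Pdx1-CreERT2, a tamoxifen-inducible Cre driven by the *Pdx1* promoter. Their controls carry the same floxed alleles without Cre. Both received tamoxifen, and 2 control and 3 *Pax4* βiKO mice were sampled at 20 weeks after 8 weeks of HFD. All mice were male. Diet and age changed together in the knock-in mice, and Cre and deletion changed together in the knockout mice, so that neither pair can be told apart. The sources call the samples biological replicates and do not say whether islets of several mice were pooled, and each sample is called a mouse here.

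The lysosome is the acidic compartment in which proteins, glycans and lipids are broken down, and autophagy delivers the cell's own material to it in a double membrane. In β cells this route also removes insulin granules and damaged mitochondria, and mice whose β cells lack autophagy have fewer β cells and secrete less insulin. TFEB and TFE3 are held inactive by mTORC1, a kinase complex that acts at the lysosomal surface, and switch on many lysosomal genes when this hold ends. They bind promoters at a short element around the letters CACGTG, which several other factors also bind.

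Total counts were between 24268157 and 42679645 in the knock-in mice and between 28618835 and 31887537 in the knockout mice, and 2 abundant genes took between 36.2% and 53.3% of the former and between 5.40% and 6.49% of the latter. Values are given as CPM, the gene's share of a library's counts after TMM scaling, and levels were not compared between the tables, which were normalized separately. *Pax4* itself had 0 counts throughout, where a floor of 3 counts corresponds to 0.0724 to 0.126 CPM, so its RNA could not check the genotypes of the 17 mice. Summed over 9 hormone and granule genes, islet endocrine markers were between 56729 and 174119 CPM, the islet label holding in every mouse. The sum of 20 acinar markers, genes of the digestive enzyme cells around the islets, ranged from 34466 to 96319.8 CPM on HFD in *Pax4* R192H mice, above every HFD-fed wildtype mouse (15762 to 23446 CPM) and every SCD-fed *Pax4* R192H mouse (12461 to 18850 CPM). The top value is that of mouse 1, against 34466 and 35393 CPM in mice 2 and 3. Acinar RNA and group therefore cannot be told apart in these comparisons. On HFD the sum of 12 macrophage markers ranged from 67.6 to 93.5 CPM in *Pax4* R192H mice and from 76.1 to 86.1 CPM in wildtype mice. Islet endocrine sums (119682 to 134755 CPM) and those of 8 duct markers (135 to 142 CPM) of the 3 HFD-fed *Pax4* R192H mice also lay above those of the other 9 knock-in mice, which reached 109964 and 125 CPM. The sum of 8 stromal markers in these 3 mice (39.1 to 59.97 CPM) lay below that of the SCD-fed *Pax4* R192H mice (63.6 to 137 CPM). The part of endocrine, duct and stromal cells in the results was not tested. In bulk islets fewer cells of a type and less RNA per cell cannot be told apart.

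**Figure D1:**
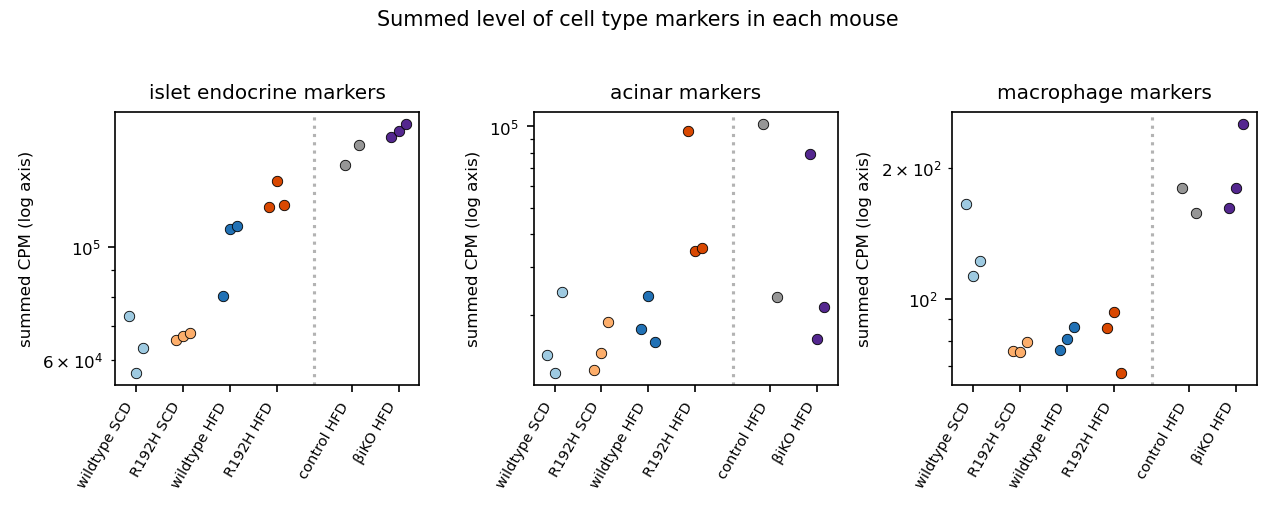
Summed CPM of islet endocrine, acinar and macrophage marker genes in each of the 17 mice, on a log axis, with 1 point a mouse. The acinar sums of the 3 HFD-fed *Pax4* R192H mice lie above those of all HFD-fed wildtype and SCD-fed *Pax4* R192H mice, while the macrophage sums of the HFD-fed knock-in groups overlap.

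Promoters of 32 of the 38 genes, 250 bases before to 50 bases after the RNA start, were read from RefSeq on GRCm38.p6, the assembly of mm10. CACGTG, which reads the same on both strands, was in a window of 11 of these 32 genes (34.4%) and of 8.09% of 27025 genes. The longer form TCACGTG, searched on both strands and always overlapping a CACGTG, was in 8 of 32 (25.0%) and in 4.29% of all genes. Counting genes with at least 1 window, the motif was in 4 of 6 proteases (*Ctsa*, *Ctsd*, *Ctsf* and *Ctsl*), in 3 of 8 of the glycosidases and lipid hydrolases (*Gaa*, *Gla* and *Glb1*), in 2 of 5 of the membrane proteins (*Lamp1* and *Mcoln1*) and in 2 of 5 of the initiation and conjugation genes (*Atg5* and *Atg7*). None of the 4 ATG8 genes, 2 transcription factors or 2 activators and sterol transfer proteins had a window with these letters. The windows of *Ctsz* and *Gusb* held none either, and for *Asah1*, *Becn1*, *Ctsb*, *Ctsh*, *Map1lc3a* and *Npc1* no window was searched. In the 8 further lists the motif was in 31 of 127 genes with a window (24.4%).

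The 100-base stretches below are from 3 genes whose RNA passed the test in the knock-in mice, *Ctsd*, *Gla* and *Glb1*, and from *Lamp1*, whose window held 4 copies. Capitals mark CACGTG. They lie before the RNA start in GRCm38.p6, at chr7:142387878-142387977 on the minus strand for *Ctsd*, chrX:134601156-134601255 on the minus strand for *Gla*, chr9:114400978-114401077 on the plus strand for *Glb1* and chr8:13159061-13159160 on the plus strand for *Lamp1*.
Ctsd: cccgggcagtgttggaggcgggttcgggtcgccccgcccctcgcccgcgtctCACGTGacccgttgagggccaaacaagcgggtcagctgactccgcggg
Gla: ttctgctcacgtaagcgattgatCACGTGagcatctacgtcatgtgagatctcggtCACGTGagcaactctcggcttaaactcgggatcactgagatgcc
Glb1: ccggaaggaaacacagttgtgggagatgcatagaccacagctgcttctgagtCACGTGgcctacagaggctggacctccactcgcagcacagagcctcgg
Lamp1: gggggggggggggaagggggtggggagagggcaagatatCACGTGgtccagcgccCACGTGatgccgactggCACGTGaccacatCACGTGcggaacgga
A match is a run of letters and not a measured binding site. Of these 4 genes the first 3 were higher in HFD-fed than in SCD-fed *Pax4* R192H mice, and *Lamp1* did not pass the test in any comparison. Of the 11 genes among the 38 with the motif, only these 3 passed between the diets in *Pax4* R192H mice. *Atg5*, *Atg7*, *Ctsa*, *Ctsf*, *Ctsl*, *Gaa*, *Lamp1* and *Mcoln1* did not, while *Ctsz* and *Gusb* passed without the motif. A relation between motif and calls was not tested.

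Levels of the 38 genes spanned a wide range. Per kilobase of exon, the median over the 12 knock-in mice was 223 CPM for *Psap*, the precursor of the saposins, 127 CPM for *Lamp1*, the main glycoprotein of the lysosomal membrane, and 92.9 CPM for *Ctsd*, the aspartic protease cathepsin D. The lowest medians per kilobase were those of *Ctsh* at 0.949 CPM, *Tfe3* at 0.759 CPM and *Tfeb* at 0.321 CPM. Length was the union of all annotated exons of a gene, so the order depends in part on the annotation. Neighbours in this order overlapped in their ranges over the 12 mice, except *Gabarapl1* over *Gabarapl2* and *Tfe3* over *Tfeb*. In the GENCODE M21 annotation 15 of the 38 genes overlap another gene, 7 of them on the same strand, among which *Ctsd* overlaps Gm49369 and *Glb1* overlaps *Tmppe*. Reads of such genes may be divided between the partners. *Asah1*, *Gla*, *Gusb*, *Ctsh* and *Map1lc3a* overlap none.

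On HFD, 1 of the 38 genes differed between *Pax4* R192H and wildtype islets with an adjusted p under 0.05 and a log2 fold change past 0.5 in either direction, against 2.28% of all 19137 genes tested, a share near that of all genes. This gene was *Asah1*, the acid ceramidase that splits ceramide, and it was lower. The 3 HFD-fed *Pax4* R192H mice did not overlap the HFD-fed wildtype mice in 7 genes, against 22.9% of all genes. They were above in *Gla*, *Glb1*, *Gusb*, *Ctsb*, *Ctsd* and *Ctsz*, 6 hydrolases, against 13% of all genes, and below in *Asah1*, against 9.89% of all genes. The median log2 fold change was 0.06 over the 38 genes and -0.01 over all genes. Without wildtype mouse 1 both medians were 0.04, and without wildtype mouse 3 they were 0.09 and -0.02. With the acinar marker level as a covariate they were 0.11 and 0.01, with 28 of the 38 positive against 20 without it.

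*Asah1* was at 183, 148 and 175 CPM in wildtype and 169, 169 and 168 CPM in *Pax4* R192H mice on SCD, and 139.99, 171 and 165 CPM in wildtype and 95.5, 101 and 118 CPM in *Pax4* R192H mice on HFD. The HFD-fed *Pax4* R192H mice were the lowest 3 of all 12, and the other groups overlapped. The HFD-fed mean was 105 ± 11.98 CPM in *Pax4* R192H mice and 159 ± 16.5 CPM in wildtype mice (SD, n = 3 each). *Asah1*, on the minus strand at chr8:41340197-41374773, was 0.661 times the wildtype level by edgeR's quasi-likelihood test (log2 fold change -0.60, SE 0.13, adjusted p = 0.0316). The call held without HFD-fed wildtype mouse 1 (adjusted p = 0.0377). It was lost without wildtype mouse 2 (adjusted p = 0.0710) or mouse 3 (0.131), and without *Pax4* R192H mouse 1 (0.137), mouse 2 (0.136) or mouse 3 (0.0502). With the acinar marker level as a covariate, the *Asah1* log2 fold change was -0.54 (adjusted p = 0.564).

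HFD-fed wildtype mouse 1 lay nearer to the SCD-fed mice than its group. Relative to the SCD-fed wildtype mean, its median log2 ratio over the 38 genes was 0.05, against 0.25 and 0.17 in the other 2, and against 0.20, 0.32 and 0.21 for *Pax4* R192H on HFD. Its islet endocrine marker sum was 80325 CPM, against 108229 and 109964 CPM in the other 2.

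**Figure D2:**
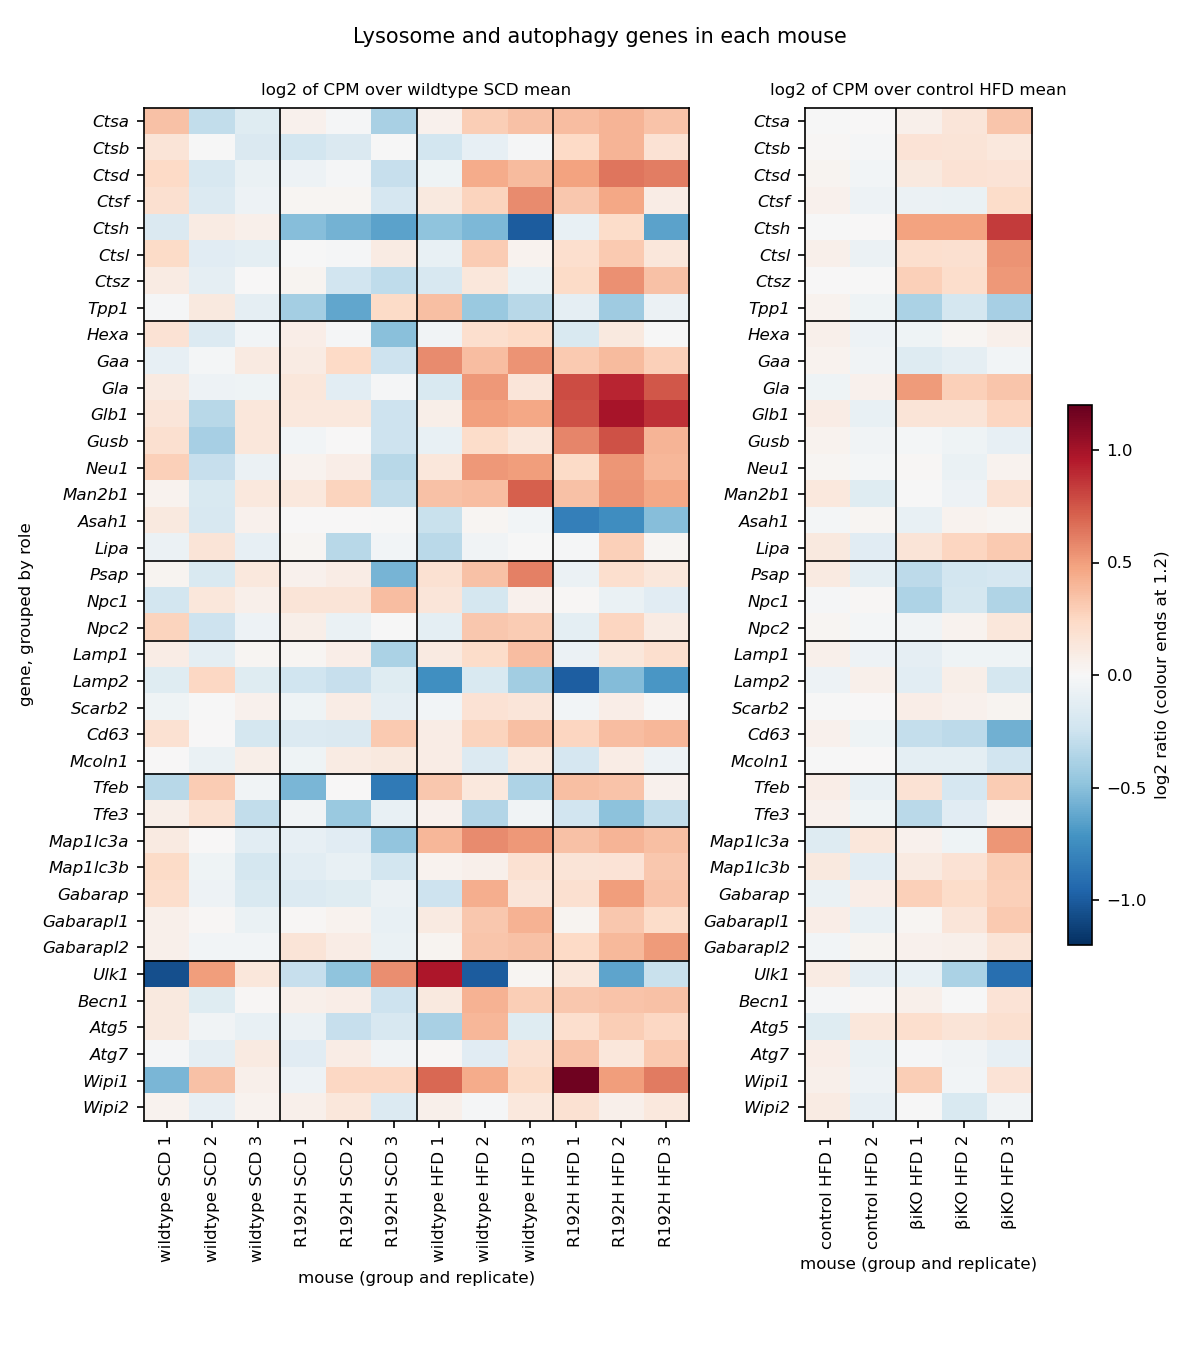
Log2 ratio of each gene's CPM to the mean of the SCD-fed wildtype mice (12 knock-in mice) or of the control mice (5 knockout mice), with genes in rows by role and mice in columns, and the colour scale ending at 1.2 in both directions. In the 3 HFD-fed *Pax4* R192H mice, *Gla*, *Glb1*, *Gusb* and *Ctsd* are above the SCD-fed wildtype mean, and *Asah1* is below it.

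Among the glycosidases, *Gla* encodes α-galactosidase A, which removes galactose from glycosphingolipids. *Gla* stood at 10.5, 9.44 and 9.46 CPM in wildtype and 10.8, 8.98 and 9.696 CPM in *Pax4* R192H mice on SCD, and 8.64, 14.1 and 10.9 CPM in wildtype and 16.9, 18.5 and 16.5 CPM in *Pax4* R192H mice on HFD. In HFD-fed *Pax4* R192H mice *Gla* was higher than in every other knock-in mouse. *Gla* was 1.55 times the HFD-fed wildtype level in HFD-fed *Pax4* R192H mice (log2 fold change 0.63, SE 0.17, 95% interval 0.27 to 0.99, adjusted p = 0.0670). Without wildtype mouse 1 the *Gla* log2 fold change was 0.47 (adjusted p = 0.209), and without wildtype mouse 2 it was 0.82 (adjusted p = 0.0193), which would pass. *Glb1* encodes the lysosomal β-galactosidase. *Glb1* read 26.4, 18.9 and 26.1 CPM in wildtype and 26.01, 25.95 and 20.04 CPM in *Pax4* R192H mice on SCD, and 25.03, 33.6 and 32.9 CPM in wildtype and 40.5, 47.3 and 43.7 CPM in *Pax4* R192H mice on HFD. Again the HFD-fed *Pax4* R192H mice were above all other 9. *Glb1* was 1.44 times the HFD-fed wildtype level in HFD-fed *Pax4* R192H mice (log2 fold change 0.52, SE 0.16, 95% interval 0.17 to 0.87, adjusted p = 0.115). *Gusb* encodes β-glucuronidase, which degrades glycosaminoglycans. *Gusb* measured 29.4, 19.5 and 28.4 CPM in wildtype and 25.2, 25.9 and 21.8 CPM in *Pax4* R192H mice on SCD, and 24.2, 30.1 and 28.3 CPM in wildtype and 38.6, 43.8 and 34.3 CPM in *Pax4* R192H mice on HFD. No other knock-in mouse reached the lowest HFD-fed *Pax4* R192H mouse. *Gusb* was 1.41 times the HFD-fed wildtype level in HFD-fed *Pax4* R192H mice (log2 fold change 0.50, SE 0.16, 95% interval 0.15 to 0.85, adjusted p = 0.131).

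Among the proteases, cathepsin D, cathepsin Z and cathepsin B were also highest in the HFD-fed *Pax4* R192H mice, without passing the test on HFD. *Ctsd* was at 238, 176 and 190.01 CPM in wildtype and 193, 199 and 166 CPM in *Pax4* R192H mice on SCD, and 194, 274 and 263 CPM in wildtype and 282, 315 and 309 CPM in *Pax4* R192H mice on HFD. The HFD-fed *Pax4* R192H values exceed all others, the nearest being HFD-fed wildtype mice 2 and 3. *Ctsd* was 1.24 times the HFD-fed wildtype level in HFD-fed *Pax4* R192H mice (log2 fold change 0.31, SE 0.16, 95% interval -0.03 to 0.65, adjusted p = 0.360). *Ctsz* stood at 29.99, 25.9 and 28.1 CPM in wildtype and 28.5, 23.9 and 22.6 CPM in *Pax4* R192H mice on SCD, and 24.5, 30.8 and 26.5 CPM in wildtype and 32.8, 40.96 and 35.8 CPM in *Pax4* R192H mice on HFD. Only narrow gaps separate HFD-fed *Pax4* R192H mouse 1 from HFD-fed wildtype mouse 2 and SCD-fed wildtype mouse 1. *Ctsz* was 1.34 times the HFD-fed wildtype level in HFD-fed *Pax4* R192H mice (log2 fold change 0.42, SE 0.14, 95% interval 0.13 to 0.71, adjusted p = 0.127). *Ctsb* read 105, 94.5 and 83.9 CPM in wildtype and 80.9, 83.9 and 94.4 CPM in *Pax4* R192H mice on SCD, and 80.9, 88.4 and 93.5 CPM in wildtype and 111, 125 and 106 CPM in *Pax4* R192H mice on HFD. Here SCD-fed wildtype mouse 1 came close to the lowest HFD-fed *Pax4* R192H mouse. *Ctsb* was 1.304 times the HFD-fed wildtype level in HFD-fed *Pax4* R192H mice (log2 fold change 0.38, SE 0.12, 95% interval 0.12 to 0.65, adjusted p = 0.126).

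*Ctsh* measured 5.36, 6.46 and 6.28 CPM in wildtype and 4.22, 4.08 and 3.86 CPM in *Pax4* R192H mice on SCD, and 4.32, 4.16 and 3.02 CPM in wildtype and 5.65, 7.01 and 3.86 CPM in *Pax4* R192H mice on HFD. *Ctsh*, the aminopeptidase cathepsin H, was high in SCD-fed wildtype islets and in mice 1 and 2 of the HFD-fed *Pax4* R192H group, and the HFD groups overlapped. *Ctsh* was 1.43 times the HFD-fed wildtype level in HFD-fed *Pax4* R192H mice (log2 fold change 0.52, SE 0.23, 95% interval 0.03 to 1.00, adjusted p = 0.272). Without *Pax4* R192H mouse 2 it was 0.31. The SCD-fed wildtype mice also had the highest macrophage marker sums of the knock-in mice, between 113 and 166 CPM, against 75.5 to 79.5 CPM in SCD-fed *Pax4* R192H mice, and the highest sums of 9 T and B cell markers of the SCD-fed mice (3.65 to 19.2 against 0.534 to 1.04 CPM). Macrophage RNA and genotype therefore cannot be told apart on SCD. With the macrophage marker level as a covariate, the *Ctsh* log2 fold change between SCD-fed *Pax4* R192H and wildtype mice went from -0.57 to -0.14, that between HFD-fed and SCD-fed wildtype mice from -0.66 to -0.05, and that between the HFD-fed genotypes from 0.52 to 0.49.

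**Figure D3:**
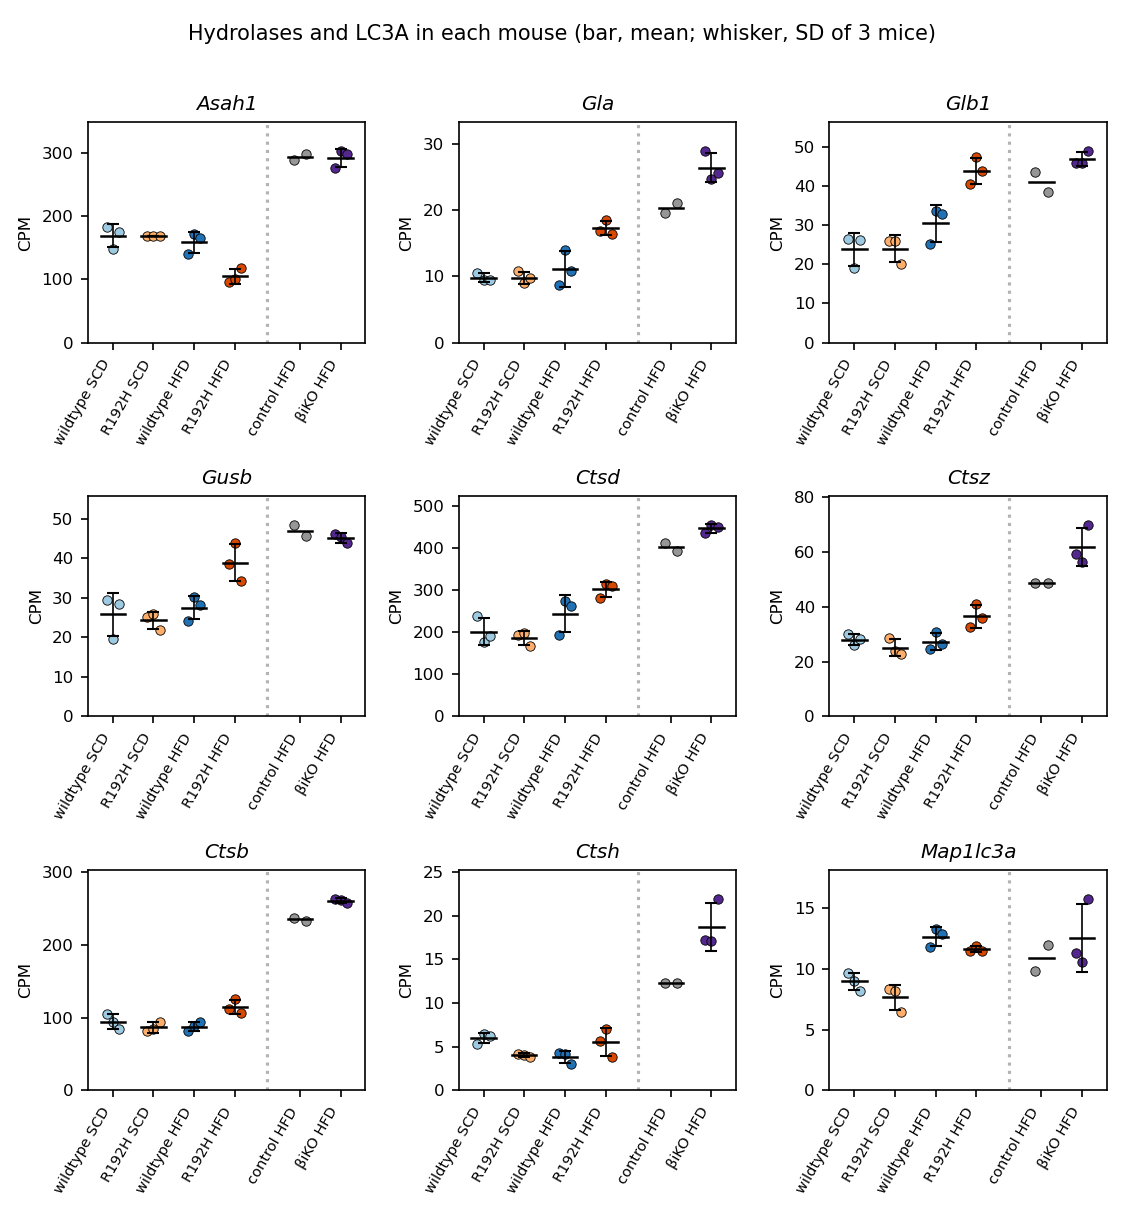
CPM per mouse of *Asah1*, *Gla*, *Glb1*, *Gusb*, *Ctsd*, *Ctsz*, *Ctsb*, *Ctsh* and *Map1lc3a* in the 6 groups, where points are mice, the bar is the group mean and the whisker the SD of groups of 3 mice. On HFD the *Pax4* R192H mice are above the wildtype mice in *Gla*, *Glb1*, *Gusb*, *Ctsd*, *Ctsz* and *Ctsb* and below them in *Asah1*, and the βiKO and control mice are separate in *Gla*, *Ctsh*, *Ctsz*, *Ctsd*, *Ctsb* and *Glb1*.

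The remaining enzymes did not separate the genotypes on HFD. *Ctsl* was at 117, 90.5 and 91.8 CPM in wildtype and 99.6, 98.9 and 107 CPM in *Pax4* R192H mice on SCD, and 93.8, 123 and 103 CPM in wildtype and 114, 124 and 109.6 CPM in *Pax4* R192H mice on HFD. *Ctsa* stood at 52.2, 33.3 and 36.9 CPM in wildtype and 42.2, 40.4 and 31.03 CPM in *Pax4* R192H mice on SCD, and 42.1, 50.01 and 52.1 CPM in wildtype and 52.8, 54.2 and 51.6 CPM in *Pax4* R192H mice on HFD. The HFD groups overlapped in both *Ctsl*, a cysteine protease, and *Ctsa*, a carboxypeptidase that also holds β-galactosidase and sialidase in a complex, with log2 fold changes of 0.12 (adjusted p = 0.728) and 0.14 (adjusted p = 0.761). *Tpp1* read 9.37, 10.3 and 8.76 CPM in wildtype and 7.14, 6.16 and 11.1 CPM in *Pax4* R192H mice on SCD, and 12.2, 6.96 and 7.5004 CPM in wildtype and 8.802, 7.05 and 9.04 CPM in *Pax4* R192H mice on HFD. *Lipa* measured 8.02, 9.41 and 7.89 CPM in wildtype and 8.57, 6.71 and 8.25 CPM in *Pax4* R192H mice on SCD, and 6.75, 8.19 and 8.44 CPM in wildtype and 8.37, 10.3 and 8.58 CPM in *Pax4* R192H mice on HFD. *Tpp1*, a tripeptidyl peptidase, and *Lipa*, the acid lipase that frees cholesterol from its esters, also overlapped, at -0.10 (adjusted p = 0.897) and 0.22 (adjusted p = 0.556). *Ctsf*, *Hexa*, *Gaa*, *Neu1* and *Man2b1*, the other enzymes, had overlapping HFD groups and log2 fold changes from -0.17 (*Gaa*) to -0.00 (*Neu1*).

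Of the activators and membrane proteins none passed the test on HFD. *Psap* was at 580.1, 501 and 621 CPM in wildtype and 588, 605 and 385 CPM in *Pax4* R192H mice on SCD, and 645, 726 and 865 CPM in wildtype and 539, 651 and 625 CPM in *Pax4* R192H mice on HFD. The values of the HFD genotypes overlapped by *Pax4* R192H mouse 2 and wildtype mouse 1. *Psap* was 0.812 times the HFD-fed wildtype level in HFD-fed *Pax4* R192H mice (log2 fold change -0.30, SE 0.18, 95% interval -0.69 to 0.09, adjusted p = 0.462). *Npc1* stood at 11.2, 14.2 and 13.6 CPM in wildtype and 14.4, 14.5 and 16.8 CPM in *Pax4* R192H mice on SCD, and 14.3, 11.2 and 13.4 CPM in wildtype and 13.1, 12.3 and 11.8 CPM in *Pax4* R192H mice on HFD. *Cd63* read 67.4, 59.4 and 51.2 CPM in wildtype and 52.9, 52.5 and 73.8 CPM in *Pax4* R192H mice on SCD, and 63.3, 71.6 and 76.3 CPM in wildtype and 71.1, 76.9 and 78.5 CPM in *Pax4* R192H mice on HFD. *Npc1*, which exports cholesterol from the lysosome, and *Cd63*, a tetraspanin of lysosomes and of the insulin granule, overlapped between the HFD genotypes, at -0.07 and 0.10 (adjusted p = 0.874 and 0.812). *Npc2*, *Lamp1*, *Lamp2*, *Scarb2* and *Mcoln1* overlapped as well, from -0.29 for *Lamp2* to -0.08 for *Mcoln1*.

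*Tfeb* and *Tfe3*, the transcription factor genes, did not differ detectably at these levels and numbers. *Tfeb* measured 1.42, 2.199 and 1.74 CPM in wildtype and 1.22, 1.79 and 0.992 CPM in *Pax4* R192H mice on SCD, and 2.24, 1.94 and 1.38 CPM in wildtype and 2.29, 2.27 and 1.85 CPM in *Pax4* R192H mice on HFD. *Tfe3* was at 8.25, 8.904 and 6.42 CPM in wildtype and 7.63, 5.76 and 7.37 CPM in *Pax4* R192H mice on SCD, and 8.16, 6.17 and 7.63 CPM in wildtype and 6.69, 5.58 and 6.39 CPM in *Pax4* R192H mice on HFD. Neither gene separated the genotypes on either diet. On HFD the *Tfeb* log2 fold change of *Pax4* R192H against wildtype was 0.20 (95% interval -0.46 to 0.87) and that of *Tfe3* -0.24 (95% interval -0.63 to 0.16), intervals that hold both directions. RNA levels say nothing of where the proteins are in the cell.

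The ATG8 genes encode LC3 and GABARAP proteins, which are attached to the autophagosome membrane. *Map1lc3a* stood at 9.67, 9.01 and 8.21 CPM in wildtype and 8.36, 8.13 and 6.45 CPM in *Pax4* R192H mice on SCD, and 11.8, 13.3 and 12.9 CPM in wildtype and 11.4, 11.9 and 11.5 CPM in *Pax4* R192H mice on HFD. *Map1lc3b* read 76.1, 62.5 and 56.1 CPM in wildtype and 59.3, 60.99 and 55.8 CPM in *Pax4* R192H mice on SCD, and 66.7, 67.9 and 73.7 CPM in wildtype and 72.2, 72.9 and 81.1 CPM in *Pax4* R192H mice on HFD. In *Map1lc3a* the 6 HFD-fed mice were above the 6 SCD-fed mice, with the genotypes of each diet overlapping. *Gabarap* measured 149.99, 125 and 114 CPM in wildtype and 116, 117 and 123 CPM in *Pax4* R192H mice on SCD, and 109, 175 and 144 CPM in wildtype and 148, 184 and 164 CPM in *Pax4* R192H mice on HFD. *Gabarapl1* was at 95.04, 91.7 and 85.99 CPM in wildtype and 91.8, 93.3 and 85.4 CPM in *Pax4* R192H mice on SCD, and 98.1, 114 and 122 CPM in wildtype and 92.8, 114 and 106 CPM in *Pax4* R192H mice on HFD. *Gabarapl2* stood at 63.7, 59.8 and 59.6 CPM in wildtype and 68.1, 65.1 and 57.7 CPM in *Pax4* R192H mice on SCD, and 62.4, 76.9 and 78.1 CPM in wildtype and 71.99, 80.1 and 86.9 CPM in *Pax4* R192H mice on HFD. In these 3 genes too the HFD-fed genotypes overlapped. On HFD the 5 genes had log2 fold changes of *Pax4* R192H against wildtype from -0.12 (*Map1lc3a*) to 0.21 (*Gabarap*), with adjusted p-values between 0.583 (*Gabarap*) and 0.777 (*Gabarapl1*).

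*Ulk1*, the kinase that starts autophagosome formation, varied widely between mice of a group. *Ulk1* read 3.64, 10.7 and 8.33 CPM in wildtype and 6.25, 5.396 and 11.1 CPM in *Pax4* R192H mice on SCD, and 14.8, 3.79 and 7.66 CPM in wildtype and 8.301, 4.87 and 6.26 CPM in *Pax4* R192H mice on HFD. It overlapped between all knock-in groups, and its log2 fold change on HFD was -0.44 with an SE of 0.46 (adjusted p = 0.712). *Atg5* encodes a part of the complex that attaches ATG8 proteins. *Atg5* measured 28.7, 25.7 and 24.9 CPM in wildtype and 25.3, 21.9 and 23.1 CPM in *Pax4* R192H mice on SCD, and 20.2, 34.8 and 23.96 CPM in wildtype and 30.5, 32.5 and 31.4 CPM in *Pax4* R192H mice on HFD. Wildtype mouse 2 was above the HFD-fed *Pax4* R192H mice and the other wildtype mice below. *Atg5* was 1.197 times the HFD-fed wildtype level in HFD-fed *Pax4* R192H mice (log2 fold change 0.26, SE 0.17, 95% interval -0.10 to 0.62, adjusted p = 0.491). *Becn1*, *Atg7*, *Wipi1* and *Wipi2* had overlapping HFD groups and log2 fold changes from 0.06 (*Becn1*) to 0.33 (*Wipi1*).

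More of the 38 genes differed between HFD and SCD in *Pax4* R192H mice. There, 6 genes rose, against 9.75% of all genes tested, and 1 fell, against 5.91%. Together 7 of 38 passed, against 15.7% of all genes, a share near that of all genes. *Glb1*, *Gla*, *Gusb*, *Ctsd*, *Ctsz* and *Map1lc3a* were higher on HFD and *Asah1* was lower, from the values given above. The largest was *Glb1*, 1.82 times the SCD level (log2 fold change 0.87, SE 0.16, adjusted p = 0.00375), followed by *Gla* with 1.76 times (log2 fold change 0.82, SE 0.17, adjusted p = 0.00565), *Ctsd* with 1.62 times (log2 fold change 0.70, SE 0.16, adjusted p = 0.00930) and *Gusb* with 1.60 times (log2 fold change 0.68, SE 0.16, adjusted p = 0.0128). *Map1lc3a* was 1.52 times (log2 fold change 0.60, SE 0.14, adjusted p = 0.0112) and *Ctsz* 1.46 times the SCD level (log2 fold change 0.54, SE 0.14, adjusted p = 0.0156). *Asah1* fell to 0.622 times the SCD level (log2 fold change -0.68, SE 0.13, adjusted p = 0.00364). The HFD-fed and SCD-fed *Pax4* R192H mice did not overlap in any of the 7.

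*Ctsb* passed the p threshold with a change under the fold threshold (log2 fold change 0.40, SE 0.12, adjusted p = 0.0393), which makes 8 of 38 genes by adjusted p alone against 17.4% of all genes. Over the 38 genes 32 log2 fold changes were positive, with a median of 0.33 against -0.06 over all genes. The diet groups of *Pax4* R192H mice did not overlap in 24 genes against 41.8% of all genes, with 21 above on HFD, against 21.3%, and 3 below, against 20.6%. By role, 2 of 8 proteases rose (median 0.42), 3 of 9 glycosidases and lipid hydrolases rose and 1 fell (median 0.40), and 1 of 5 ATG8 genes rose (median 0.36). None of the 3 activators and sterol transfer proteins (median 0.09), 5 membrane proteins (0.04), 2 transcription factors (0.26) or 6 initiation and conjugation genes (0.33) passed. *Tfeb* had 0.67 (95% interval -0.01 to 1.34, adjusted p = 0.158), *Lamp2* -0.50 (adjusted p = 0.0533) and *Wipi1* 0.65 (adjusted p = 0.0682). *Lamp2* was called by DESeq2, with no filter on low counts, with at least 10 counts in each mouse, with the replicate block, without the 2 most abundant genes and in a model of the 2 groups alone, and *Wipi1* by DESeq2, with no filter and in the model of 2 groups.

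Between the diets in *Pax4* R192H mice, 0 of the 38 genes passed in edgeR once the acinar marker level was a covariate, with 14 at an unadjusted p below 0.05. Of all genes 0.685% passed with this covariate, against 15.7% without it, and 16.98% had an unadjusted p below 0.05. *Glb1* then had a log2 fold change of 0.95, *Gla* of 0.77 and *Asah1* of -0.62 (adjusted p = 0.196). Leaving out 1 mouse gave between 5 and 7 calls, where between 8.38% and 11.2% of all genes passed. Those 5 without SCD-fed mouse 3 were 4 of the 7 and *Cd63*, which was not called with all mice (adjusted p = 0.0316, against 0.138). *Ctsz* was lost without SCD-fed mouse 2 (adjusted p = 0.0529) or mouse 3 (0.0610) and without HFD-fed mouse 2 (0.0819). *Gusb* was lost without SCD-fed mouse 3 (0.0526) or HFD-fed mouse 2 (0.0660), and *Map1lc3a* went under the fold threshold without SCD-fed mouse 3, at a log2 fold change of 0.49.

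**Figure D4:**
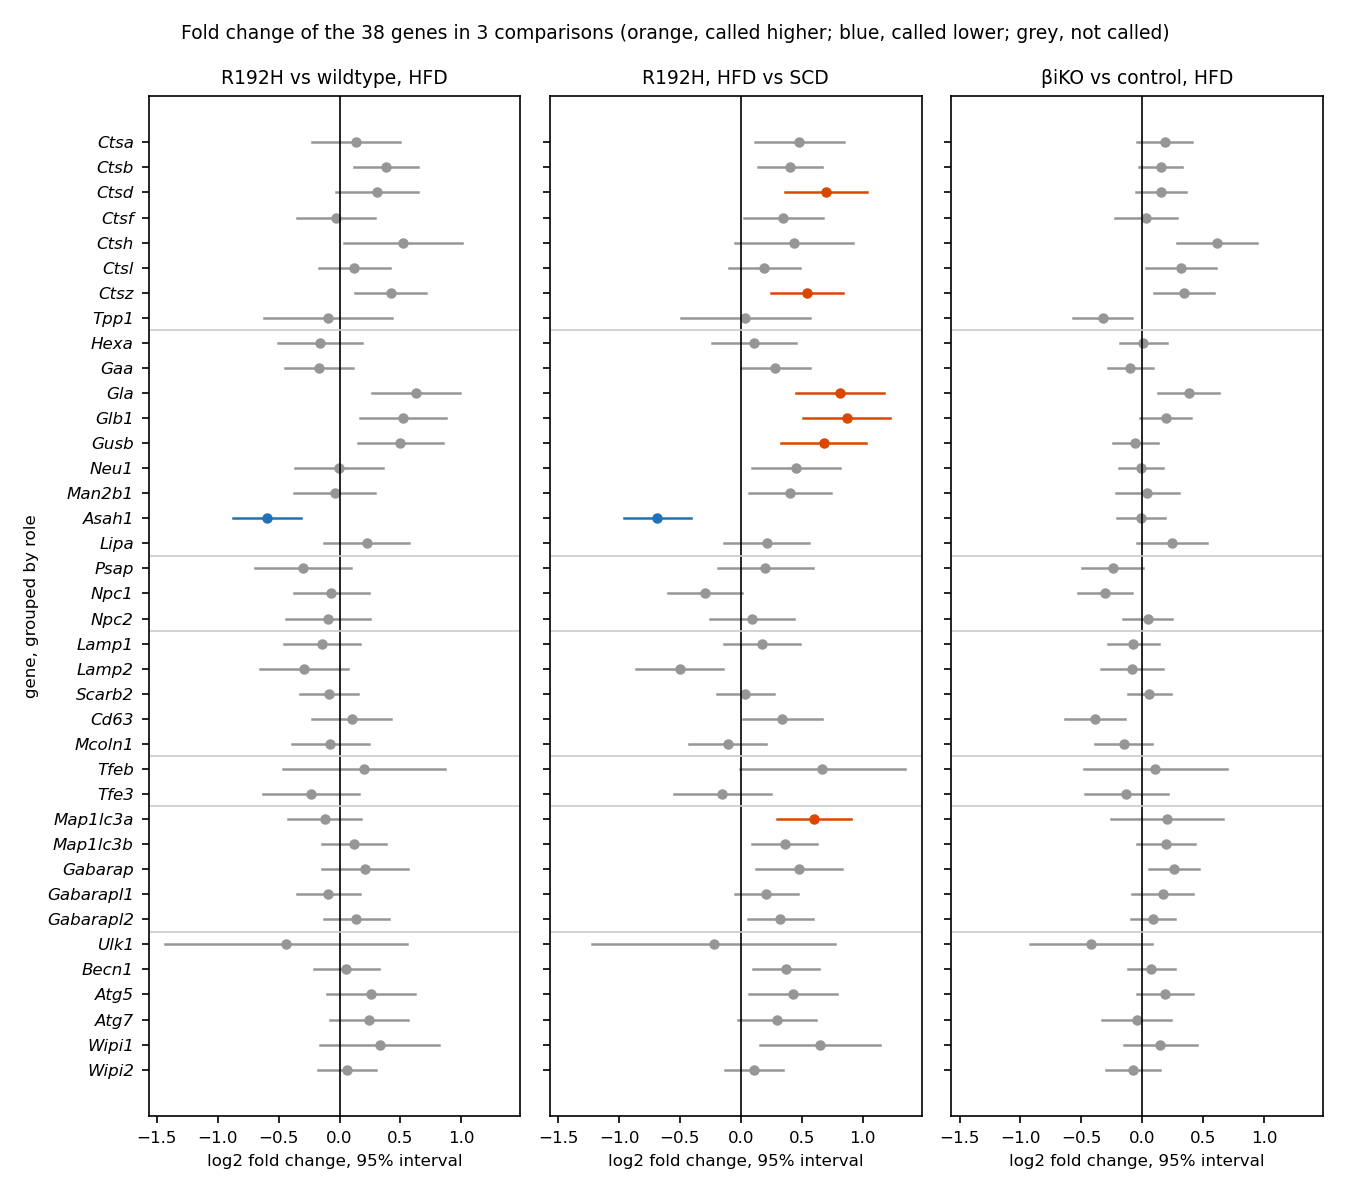
Log2 fold change with its 95% interval for each of the 38 genes in 3 comparisons, *Pax4* R192H against wildtype on HFD, HFD against SCD in *Pax4* R192H mice, and *Pax4* βiKO against control on HFD. Orange marks genes called higher, blue genes called lower and grey genes not called, 1 of 38 being called in the first comparison, 7 in the second and 0 in the third.

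In wildtype mice none of the 38 genes passed between the diets, against 0.371% of all genes, and 10 had an unadjusted p below 0.05, 8 higher and 2 lower, against 15.2% of all genes. Macrophage marker sums were lower in each HFD-fed wildtype mouse (76.1 to 86.1 CPM) than in the SCD-fed ones (113 to 166 CPM), as were stromal sums (33.9 to 46.8 against 51.2 to 273 CPM) and T and B cell sums (0.693 to 2.21 against 3.65 to 19.2 CPM), while endocrine sums were higher (80325 to 109964 against 56729 to 73319 CPM). With the macrophage marker level as a covariate 0 of the 38 had an unadjusted p below 0.05, against 3.70% of all genes, and 0 of all genes passed. *Gaa*, the acid α-glucosidase that degrades glycogen, was nearest with 0.50 (adjusted p = 0.109), before *Map1lc3a* with 0.50 (adjusted p = 0.123), *Man2b1* with 0.49 (adjusted p = 0.163) and *Ctsh* with -0.66 (adjusted p = 0.194). The median over the 38 genes was 0.14 against 0.01 over all genes, and was 0.24 without SCD-fed mouse 1. DESeq2 made no call among the 38 in this comparison either.

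Whether the response to HFD differed between the genotypes was tested by the interaction of genotype and diet. None of the 38 genes passed, against 0.131% of all genes, while 7 had an unadjusted p below 0.05 (6 higher, 1 lower) against 11.2% of all genes. With the macrophage covariate 0 of the 38 did, against 5.64% of all genes. The interaction of the 12 macrophage markers was above 0 in all 12, between 0.01 for *Cd14* and 2.26 for *Lyz2*, and none of them passed. That of the 20 acinar markers was above 0 in all 20 (median 1.69, 17 at an unadjusted p below 0.05) and that of the 8 stromal markers in all 8 (median 0.98), and none of these passed either. The interaction was 1.09 for *Ctsh* (adjusted p = 0.199), -0.60 for *Asah1* (0.222), 0.58 for *Ctsz* (0.262) and 0.51 for *Ctsb* (0.280). With the macrophage covariate that of *Ctsh* was 0.63 and that of *Ctsb* 0.18. *Gla*, *Gusb* and *Glb1* had 0.63, 0.58 and 0.51, with adjusted p-values of 0.327, 0.351 and 0.433. The calls made in *Pax4* R192H mice and not in wildtype mice are thus not shown to differ between the genotypes. DESeq2 called 0 of the 38 as well.

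On SCD none of the 38 genes passed between the genotypes and none of all 19137 genes did (0%). Of the 38, 1 had an unadjusted p below 0.05, *Ctsh* with -0.57, against 3.29% of all genes, and DESeq2 called 0. Groups did not overlap in *Npc1* (above), *Ctsh* and *Lamp2* (below), against 7.83% of all genes. The log2 fold changes of *Asah1* and *Gla* were -0.00 each, and the median over the 38 genes was -0.05. Without wildtype mouse 2 this median was -0.11, and without wildtype mouse 1 or *Pax4* R192H mouse 3 it was 0.00.

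In the knockout mice, none of the 38 genes passed between *Pax4* βiKO and control islets, where 0.0893% of all 20167 genes tested did. With 2 controls and 3 residual degrees of freedom, 8 of the 38 had an unadjusted p below 0.05 (5 higher, 3 lower) against 12.8% of all genes. DESeq2 called 1, *Ctsh*, and 0.646% of the 38704 genes to which it gave a p-value. The groups did not overlap in 18 genes against 32.6% of all genes, with 13 above, against 15.9%, and 5 below, against 16.7%. *Esr1*, whose ligand-binding part is in the CreERT2 transgene, was between 265 and 298 CPM in the βiKO mice and between 0.530 and 0.706 CPM in the controls, which sets the groups apart as labelled. Acinar marker sums overlapped, between 16249 and 79270 CPM in βiKO mice and between 23302 and 102195 CPM in controls. Every βiKO mouse was above both controls in islet endocrine sums (164503 to 174119 against 144625 to 158166 CPM), duct sums (277 to 338 against 229 to 233 CPM) and endothelial sums (287 to 346 against 277 to 283 CPM), and the part of these cells in the results was not tested.

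*Ctsh* was at 12.3 and 12.3 CPM in the control mice and 17.2, 17.1 and 21.9 CPM in the *Pax4* βiKO mice. Every βiKO mouse was above both controls. *Ctsh* was 1.53 times the control level in *Pax4* βiKO mice (log2 fold change 0.61, SE 0.14, 95% interval 0.28 to 0.94, adjusted p = 0.210). With DESeq2 the *Ctsh* adjusted p was 0.0182, with no filter on low counts it was 0.00252, and with the macrophage marker level as a covariate 0.260 (log2 fold change 0.49). The macrophage marker sum was between 162 and 253 CPM in βiKO mice and between 157 and 180 CPM in controls. *Gla* stood at 19.6 and 21.1 CPM in the control mice and 28.9, 24.8 and 25.7 CPM in the *Pax4* βiKO mice. *Ctsz* read 48.8 and 48.7 CPM in the control mice and 59.3, 56.4 and 69.8 CPM in the *Pax4* βiKO mice. *Ctsl* measured 207 and 189 CPM in the control mice and 227, 227 and 288 CPM in the *Pax4* βiKO mice. These 3 enzymes were above the controls in all 3 βiKO mice, at log2 fold changes of 0.38 (adjusted p = 0.266), 0.34 (0.282) and 0.32 (0.349). The *Ctsl* log2 fold change was 0.20 without βiKO mouse 3, with the macrophage covariate and with the replicate block. *Ctsd* was at 411 and 391 CPM in the control mice and 434, 454 and 450.3 CPM in the *Pax4* βiKO mice. *Ctsb* stood at 237 and 233 CPM in the control mice and 263, 262 and 257 CPM in the *Pax4* βiKO mice. *Glb1* read 43.5 and 38.5 CPM in the control mice and 45.7, 45.7 and 48.8 CPM in the *Pax4* βiKO mice. In these too the groups were apart, though the gaps were narrow, with 0.15 for *Ctsd*, 0.15 for *Ctsb* and 0.19 for *Glb1*.

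*Asah1* measured 289 and 298 CPM in the control mice and 276, 302 and 297 CPM in the *Pax4* βiKO mice. The βiKO mice lay around the controls, at an *Asah1* log2 fold change of -0.01 (95% interval -0.20 to 0.19, adjusted p = 0.976). *Gusb* was at 48.4 and 45.6 CPM in the control mice and 46.2, 45.4 and 43.8 CPM in the *Pax4* βiKO mice. *Map1lc3a* stood at 9.81 and 11.97 CPM in the control mice and 11.3, 10.5 and 15.8 CPM in the *Pax4* βiKO mice. Neither *Gusb*, at -0.06, nor *Map1lc3a*, at 0.20, was separate. *Ctsa* read 77.3 and 77.97 CPM in the control mice and 81.2, 85.7 and 97.6 CPM in the *Pax4* βiKO mice. *Lipa* measured 14.6 and 12.3 CPM in the control mice and 14.98, 16.1 and 16.7 CPM in the *Pax4* βiKO mice. Both were above the controls in all βiKO mice, by 0.18 for *Ctsa* (adjusted p = 0.466) and 0.24 for *Lipa* (0.454).

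*Cd63* was at 145 and 135 CPM in the control mice and 115, 113 and 93.9 CPM in the *Pax4* βiKO mice. *Npc1* stood at 30.9 and 31.3 CPM in the control mice and 24.1, 26.9 and 24.2 CPM in the *Pax4* βiKO mice. *Tpp1* read 24.7 and 23.1 CPM in the control mice and 18.3, 20.7 and 18.2 CPM in the *Pax4* βiKO mice. These 3 and *Psap* were below the controls in every βiKO mouse. *Psap* measured 933 and 802 CPM in the control mice and 696, 746 and 756 CPM in the *Pax4* βiKO mice. Their log2 fold changes were -0.39 for *Cd63* (adjusted p = 0.257), -0.31 for *Npc1* (0.282), -0.33 for *Tpp1* (0.293) and -0.24 for *Psap* (0.398). *Mcoln1*, a calcium channel of the lysosome, was also below with -0.15, and *Scarb2*, a lysosomal membrane protein, above with 0.06.

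*Tfeb* was at 2.602 and 2.32 CPM in the control mice and 2.77, 2.15 and 3.03 CPM in the *Pax4* βiKO mice. *Tfe3* stood at 12.04 and 11.2 CPM in the control mice and 9.26, 10.6 and 11.96 CPM in the *Pax4* βiKO mice. The transcription factor genes overlapped, at 0.11 and -0.13. *Gabarap* read 242 and 271 CPM in the control mice and 312, 299 and 312 CPM in the *Pax4* βiKO mice. *Gabarapl2* measured 122 and 127 CPM in the control mice and 129, 129 and 138 CPM in the *Pax4* βiKO mice. Both GABARAP genes were above the controls, by 0.26 (adjusted p = 0.298) and 0.09 (0.675). *Gabarapl1* was at 193 and 172 CPM in the control mice and 185, 202 and 227 CPM in the *Pax4* βiKO mice. *Map1lc3b* stood at 137 and 115 CPM in the control mice and 136, 142 and 155 CPM in the *Pax4* βiKO mice. These ATG8 genes overlapped, at 0.17 for *Gabarapl1* and 0.20 for *Map1lc3b*. *Ulk1* read 20.5 and 17.8 CPM in the control mice and 17.96, 14.7 and 10.2 CPM in the *Pax4* βiKO mice. *Atg5* measured 43.97 and 53.5 CPM in the control mice and 56.2, 54.2 and 55.8 CPM in the *Pax4* βiKO mice. *Ulk1* overlapped at -0.42, and *Atg5* was above the controls at 0.18 (adjusted p = 0.475). The 12 genes of the 38 not named for this comparison overlapped between the groups, from -0.10 for *Gaa* to 0.15 for *Wipi1*.

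The 2 models share no mouse, so their values may be set side by side. The log2 fold changes on HFD, *Pax4* R192H against wildtype and *Pax4* βiKO against control, had the same sign in 27 of the 38 genes (71.1%), 16 higher and 11 lower in both, against 65.5% of the 18590 genes tested in both tables. *Gla*, *Ctsz*, *Ctsb*, *Ctsd* and *Glb1* were above the comparison group in every mouse of both models, 5 of the 38 (13.2%) against 5.09% of the 18590 genes. *Asah1* was below it in every knock-in mouse and overlapped the controls in the knockout model, and the difference between the models was not tested. HFD exposure and age differed between the models, at 4 and 8 weeks of HFD and 16 and 20 weeks of age.

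Of the 154 further lysosome and autophagy genes, 5 differed between the genotypes on HFD, 1 higher and 4 lower, or 3.25%, against 2.28% of all genes. The split was 6 higher and 5 lower with no filter on low counts (3.21% of all genes passing) and with DESeq2 (2.31%). It was 5 against 4 where each mouse needed 10 counts (4.61%). Of the 5, all 4 that were lower belong to the list of mTORC1 signalling at the lysosome (4 of 21, median -0.17, against -0.01 over all genes). *Rragc* and *Rragd* encode Rag GTPases that bring mTORC1 to the lysosome, and *Flcn* and *Fnip2* the complex that switches these Rag proteins, through which TFEB and TFE3 are held inactive. *Rragd* was at 54.95, 54.5 and 54.8 CPM in wildtype and 52.2, 56.9 and 49.4 CPM in *Pax4* R192H mice on SCD, and 48.2, 58.1 and 57.998 CPM in wildtype and 30.8, 35.2 and 33.2 CPM in *Pax4* R192H mice on HFD. The HFD-fed *Pax4* R192H mice were below all 9 others. *Rragd* was 0.604 times the HFD-fed wildtype level in HFD-fed *Pax4* R192H mice (log2 fold change -0.73, SE 0.11, 95% interval -0.97 to -0.48, adjusted p = 0.00639). *Fnip2* stood at 68.4, 82.2 and 65.2 CPM in wildtype and 74.4, 74.8 and 71.002 CPM in *Pax4* R192H mice on SCD, and 76.8, 50.4 and 54.6 CPM in wildtype and 31.1, 24.97 and 36.1 CPM in *Pax4* R192H mice on HFD. Its HFD-fed *Pax4* R192H mice were again the lowest 3 of the 12. *Fnip2* was 0.508 times the HFD-fed wildtype level in HFD-fed *Pax4* R192H mice (log2 fold change -0.98, SE 0.17, 95% interval -1.35 to -0.61, adjusted p = 0.0127). *Flcn* read 38.7, 30.8 and 30.9 CPM in wildtype and 37.3, 40.2 and 32.8 CPM in *Pax4* R192H mice on SCD, and 36.2, 34.1 and 41.1 CPM in wildtype and 21.2, 23.6 and 26.4 CPM in *Pax4* R192H mice on HFD. The same 3 mice were lowest. *Flcn* was 0.639 times the HFD-fed wildtype level in HFD-fed *Pax4* R192H mice (log2 fold change -0.65, SE 0.14, 95% interval -0.94 to -0.35, adjusted p = 0.0297). *Rragc* measured 35.4, 39.3 and 35.8 CPM in wildtype and 41.2, 39.1 and 29.2 CPM in *Pax4* R192H mice on SCD, and 41.7, 33.3 and 35.1 CPM in wildtype and 23.97, 25.5 and 24.3 CPM in *Pax4* R192H mice on HFD. Here SCD-fed *Pax4* R192H mouse 3 was nearest to them. *Rragc* was 0.670 times the HFD-fed wildtype level in HFD-fed *Pax4* R192H mice (log2 fold change -0.58, SE 0.14, 95% interval -0.88 to -0.28, adjusted p = 0.0476).

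*Rragd* kept its call without any 1 of the 6 HFD-fed mice. *Fnip2* lost it without *Pax4* R192H mouse 1 (adjusted p = 0.0557) or mouse 2 (0.0721). *Flcn* kept it only without wildtype mouse 2, with adjusted p-values of 0.0737 without wildtype mouse 1 and 0.138 without mouse 3, and of 0.136, 0.119 and 0.0608 without *Pax4* R192H mice 1, 2 and 3. *Rragc* likewise kept it only without wildtype mouse 2, with 0.167 without wildtype mouse 1, 0.131 without mouse 3 and 0.169, 0.147 and 0.156 without *Pax4* R192H mice 1, 2 and 3. With all mice kept, the calls of *Flcn* and *Rragc* were also lost with the replicate block, and that of *Rragc* with the macrophage covariate. With the acinar covariate the log2 fold change was -0.62 for *Rragd* (adjusted p = 0.397), -0.85 for *Fnip2* (0.537), -0.36 for *Flcn* (0.683) and -0.39 for *Rragc* (0.688), and 1 of all 19137 genes passed. The interaction of genotype and diet was -0.67 for *Rragd* (adjusted p = 0.113), -1.01 for *Fnip2* (0.117), -0.78 for *Flcn* (0.132) and -0.57 for *Rragc* (0.292), and none passed.

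The gene that was higher on HFD in *Pax4* R192H mice was *Ccpg1*, a receptor that directs endoplasmic reticulum to autophagosomes. *Ccpg1* was at 190.2, 131 and 139.6 CPM in wildtype and 158, 165 and 152 CPM in *Pax4* R192H mice on SCD, and 150.04, 177 and 174 CPM in wildtype and 291, 257 and 243 CPM in *Pax4* R192H mice on HFD. Its HFD-fed *Pax4* R192H values were above those of all other knock-in mice. *Ccpg1* was 1.58 times the HFD-fed wildtype level in HFD-fed *Pax4* R192H mice (log2 fold change 0.66, SE 0.15, 95% interval 0.34 to 0.98, adjusted p = 0.0365). The *Ccpg1* call was lost without any 1 of the 6 mice, with adjusted p-values of 0.129, 0.0529 and 0.119 without wildtype mice 1, 2 and 3 and of 0.139, 0.110 and 0.0735 without *Pax4* R192H mice 1, 2 and 3. It was also lost with the replicate block and with the acinar covariate. *Lamtor2*, a subunit of the scaffold that anchors the Rag proteins, stood in the other direction from *Rragc* and *Rragd*. *Lamtor2* stood at 15.3, 9.15 and 11.8 CPM in wildtype and 10.3, 10.8 and 10.2 CPM in *Pax4* R192H mice on SCD, and 12.02, 16.8 and 14.7 CPM in wildtype and 21.3, 24.8 and 21.2 CPM in *Pax4* R192H mice on HFD. It was above every other mouse in the HFD-fed *Pax4* R192H group without passing the test. *Lamtor2* was 1.55 times the HFD-fed wildtype level in HFD-fed *Pax4* R192H mice (log2 fold change 0.63, SE 0.18, 95% interval 0.24 to 1.02, adjusted p = 0.0851).

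**Figure D5:**
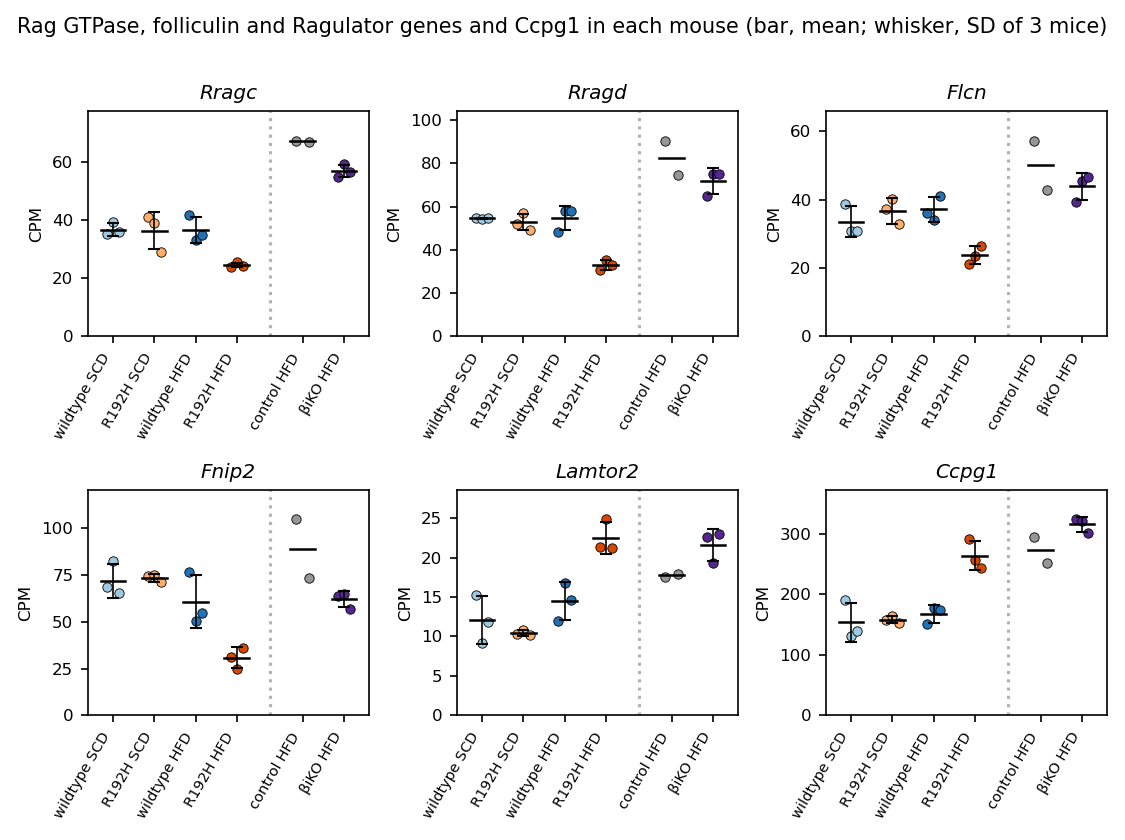
CPM per mouse of *Rragc*, *Rragd*, *Flcn*, *Fnip2*, *Lamtor2* and *Ccpg1* in the 6 groups, where points are mice, the bar is the group mean and the whisker the SD of groups of 3 mice. The HFD-fed *Pax4* R192H mice are the lowest of the 12 knock-in mice in the first 4 genes and the highest in the last 2.

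Between the diets in *Pax4* R192H mice, 31 of the 154 genes passed (20.1%), 20 higher and 11 lower, against 15.7% of all genes (9.75% higher and 5.91% lower), with a median of 0.07. Of 32 further hydrolases 8 were higher and 1 lower. Among the higher ones were *Naglu* (log2 fold change 0.85, SE 0.15, adjusted p = 0.00265) and *Gm2a*, the activator of ganglioside breakdown (log2 fold change 0.85, SE 0.17, adjusted p = 0.00494). Of 18 vacuolar ATPase genes, which acidify the lysosome, 3 were higher and 0 lower, *Atp6v0e2* (log2 fold change 0.97, SE 0.13, adjusted p = 0.000538), *Atp6ap1* (log2 fold change 0.59, SE 0.16, adjusted p = 0.0248) and *Atp6v0c* (log2 fold change 0.53, SE 0.15, adjusted p = 0.0306). *Atp6v0e2* was at 47.01, 49.5 and 39.1 CPM in *Pax4* R192H mice on SCD and 77.7, 95.1 and 92.2 CPM on HFD, and at 59.03, 64.4 and 68.6 CPM in HFD-fed wildtype mice. Of 13 enzyme sorting genes 1 was higher, *Gnptg*, a subunit of the enzyme that tags hydrolases with mannose phosphate, at 2.07 times the SCD level (log2 fold change 1.05, SE 0.14, adjusted p = 0.000465). *Gnptg* was at 52.9, 54.4 and 54.1 CPM in *Pax4* R192H mice on SCD and 97.7, 124 and 113 CPM on HFD, and at 66.8, 85.6 and 79.9 CPM in HFD-fed wildtype mice. In both *Atp6v0e2* and *Gnptg* the *Pax4* R192H mice of the 2 diets did not overlap, and HFD-fed wildtype mice lay between them.

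Against the same 9.75% of all genes higher and 5.91% lower, 1 of 16 further membrane proteins was higher, *Tmem9* (log2 fold change 0.90, SE 0.15, adjusted p = 0.00152). Of 26 further core autophagy genes 1 was higher, *Vmp1* (log2 fold change 0.71, SE 0.15, adjusted p = 0.00692), and 2 were lower, *Atg2b* (log2 fold change -0.63, SE 0.17, adjusted p = 0.0234) and *Rb1cc1* (log2 fold change -0.62, SE 0.19, adjusted p = 0.0416). Of 15 autophagy receptors *Ccpg1* (log2 fold change 0.74, SE 0.15, adjusted p = 0.00505) and *Sqstm1*, or p62, (log2 fold change 0.52, SE 0.13, adjusted p = 0.0147) were higher. Of 13 fusion genes *Vamp8* (log2 fold change 0.67, SE 0.15, adjusted p = 0.00847) and *Ykt6* (log2 fold change 0.70, SE 0.16, adjusted p = 0.0105) were higher and *Epg5* (log2 fold change -0.62, SE 0.15, adjusted p = 0.0139) was lower. In the mTORC1 list 2 of 21 were higher and 7 lower, led by *Fnip2* (log2 fold change -1.25, SE 0.17, adjusted p = 0.000616), *Lamtor2* (log2 fold change 1.11, SE 0.18, adjusted p = 0.00164) and *Rragd* (log2 fold change -0.67, SE 0.11, adjusted p = 0.00179). With the acinar covariate *Atp6v0e2* (log2 fold change 1.23, adjusted p = 0.0315) and *Gnptg* (1.19, adjusted p = 0.0444) still passed and the others of the 154 did not, against 0.685% of all genes. *Atg2b* then had -0.95.

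Some of these diet calls rested on single *Pax4* R192H mice. *Atp6v0c* was lost without SCD-fed mouse 1 or 3 or HFD-fed mouse 2 or 3 (adjusted p up to 0.130), and *Atp6ap1* without SCD-fed mouse 3 or HFD-fed mouse 2 or 3 (up to 0.113). *Atg2b* was lost without any mouse but HFD-fed mouse 1 (up to 0.114), and *Rb1cc1* without any but SCD-fed mouse 2 (up to 0.180). *Sqstm1* was lost without SCD-fed mouse 3 or HFD-fed mouse 2 (up to 0.0628), *Ykt6* without HFD-fed mouse 2 (0.0535) and *Epg5* without SCD-fed mouse 2 or HFD-fed mouse 2 or 3 (up to 0.0565). The other named genes of these lists kept their calls without any 1 mouse. With all mice kept, *Atp6v0c*, *Atp6ap1*, *Atg2b* and *Rb1cc1* were also lost with the macrophage covariate. *Atp6v0c*, *Atp6ap1* and *Rb1cc1* were lost with the replicate block, and *Atp6v0c* and *Sqstm1* where each mouse needed 10 counts.

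None of the 154 genes passed on SCD between the genotypes, in the interaction or between the diets in wildtype mice, with 2, 24 and 25 genes at an unadjusted p below 0.05, against 3.29%, 11.2% and 15.2% of all genes. DESeq2 called 0, 3 and 4, against 0.0579%, 0.782% and 1.37% of the 39752 genes to which it gave a p-value. In the knockout mice none passed either, with 34 at an unadjusted p below 0.05, against 12.8% of all genes, and 3 called by DESeq2, against 0.646% of its 38704 genes. These DESeq2 shares also count genes of low counts that the edgeR filter left out, while all 154 genes passed that filter. *Fnip2* was at 105 and 73.2 CPM in the control mice and 63.9, 65.01 and 57.1 CPM in the *Pax4* βiKO mice. *Rragc* stood at 67.5 and 66.9 CPM in the control mice and 54.9, 59.3 and 56.7 CPM in the *Pax4* βiKO mice. *Rragd* read 90.6 and 74.5 CPM in the control mice and 64.9, 75.3 and 75.3 CPM in the *Pax4* βiKO mice. *Fnip2* and *Rragc* were below both controls in all βiKO mice, against 16.7% of all genes tested, and *Rragd* overlapped. *Flcn* measured 57.2 and 42.8 CPM in the control mice and 39.4, 45.5 and 46.7 CPM in the *Pax4* βiKO mice. *Ccpg1* was at 294 and 252 CPM in the control mice and 324, 321 and 302 CPM in the *Pax4* βiKO mice. *Lamtor2* stood at 17.5 and 17.9 CPM in the control mice and 22.7, 19.3 and 22.96 CPM in the *Pax4* βiKO mice. *Flcn* overlapped, and *Ccpg1* and *Lamtor2* were above the controls in all βiKO mice, against 15.9% of all genes tested. Of the 154 genes, 34 were above and 30 below the controls in every βiKO mouse. The log2 fold changes were -0.52 for *Fnip2* (adjusted p = 0.264), -0.24 for *Rragc* (0.293), -0.20 for *Rragd*, -0.19 for *Flcn*, 0.21 for *Ccpg1* and 0.29 for *Lamtor2*.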

How the data were processed

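Islet RNA of 17 male mice was sequenced from stranded total RNA libraries. The authors deposited 2 tables of expected counts, made with STAR v2.7.1 and RSEM v1.3.3 on mm10 per the submitters' processing notes. They need not be whole and are not scaled for depth. The annotation release and the strand setting are not given in the sources used here. Groups were taken from the sample labels, and no sample was left out.

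Expected counts were rounded to whole numbers, kept by filterByExpr (minimum count 10), normalized by TMM and tested by edgeR's quasi-likelihood test (R v4.3.3 with edgeR v4.0.16), with 1 model per table, a coefficient per group and no covariate. All 12 knock-in mice shared 1 estimate of the spread (8 residual degrees of freedom), as did the 5 knockout mice (3). P-values were adjusted over all genes tested by Benjamini-Hochberg. Calls needed an adjusted p under 0.05 and a log2 fold change past 0.5 in either direction. The 38 genes and all lists were chosen with earlier results of these data known. Genes called in any of the 6 comparisons, those with the next lowest p-values on HFD up to 20 genes, the ATG8 genes, *Tfeb* and *Tfe3* are given in full, and of each further list up to 3 called genes by lowest adjusted p, except 1 gene that is not reported here. *Lamp2*, *Wipi1*, *Gaa*, *Man2b1*, *Mcoln1*, *Scarb2* and *Lamtor2* in single sentences were picked after their values were seen.

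Coordinates, exon lengths and overlaps are from GENCODE M21 on GRCm38, which matched 90.7% and 89.5% of the tested identifiers, and promoters from RefSeq on GRCm38.p6. Replicates correlated by at least 0.939 and 0.971 in log2 CPM, and no 2 samples of a table had a correlation of 1 in their counts. Floors of 3 counts hold for counting error alone, as the reads carry no molecular identifiers and are not separate molecules. The alternatives were RLE size factors, other filters on low counts, the replicate number as a block, marker covariates, the 2 most abundant genes left out, models of a pair of groups, each mouse left out and DESeq2 v1.42.0. With no filter and in DESeq2 the shares of all genes also count genes of low counts, so their base differs from that of the main shares.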

Additional observations from a re-analysis of the deposited data

How the results depend on the processing

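The number of the 38 genes called between *Pax4* R192H and wildtype mice on HFD was small and moved with the setting. It was 1 as reported, 3 with no filter on low counts (*Gla*, *Glb1* and *Asah1*, where 3.21% of all genes passed), 2 with DESeq2 (2.31%) and 2 where each mouse needed 10 counts (4.61%; *Gla* and *Asah1* in both), 0 with the acinar covariate (where 1 of all 19137 genes passed, and 5 of the 38 had an unadjusted p below 0.05, against 8.02% of all genes) and 0 in a model of only the 2 groups compared. In that model of 2 groups 2.00% of all genes passed. Leaving out 1 mouse gave between 0 and 1, where between 0.458% and 2.45% of all genes passed. Without HFD-fed wildtype mouse 2, *Gla* was called in place of *Asah1*. The adjusted p of *Asah1* was between 0.00104 and 0.564 over its alternatives, with a log2 fold change between -0.69 and -0.53. Between the diets in *Pax4* R192H mice, the count of 7 went to 0 with the acinar covariate and was between 7 and 9 in the other settings that kept all mice. Of all genes 0.685% passed with that covariate and between 8.86% and 21.2% in those other settings. For *Pax4* βiKO against control it was 0 (0.0893% of all genes), with 1 by no filter (1.80%) and 1 by DESeq2 (0.646%), *Ctsh* in both. On SCD, in the interaction and between the diets in wildtype mice it was 0 in every setting. Genes were tracked in a comparison only where their unadjusted p was below 0.05 in the main model, which made a reversed direction unlikely from the start. Over these, leaving the counts aside, no alternative reversed a direction, 140 values lost a threshold that they had passed, 10 came to pass it and 1101 kept their side. Over all 38 genes, the number with a positive log2 fold change between the genotypes on HFD went from 20 to 28 with the acinar covariate. In the knockout mice it went from 23 to 18 with the replicate block. The causes were not tested. Of the 154 further genes, the count between the genotypes on HFD went from 5 to 11 with no filter, 9 with at least 10 counts, 11 with DESeq2, 2 with the replicate block (0.768% of all genes) and 0 with the acinar covariate, and the shares of all genes in the first 3 are those given above.

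The replicate numbers are shared between groups, but in 4 of 14 pairs of same-numbered mice only was the correlation of deviations from the group means over 0.1 (range -0.30 to 0.19), so the numbers were not taken to pair mice. With the replicate block 0 of the 38 genes were called between the genotypes on HFD (*Asah1* log2 fold change -0.60, adjusted p = 0.0762), against 0.768% of all genes, 8 between the diets in *Pax4* R192H mice, against 12.3%, and 0 in the other comparisons. Depth did not leave any of the 38 genes out of the tests.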
